A study of Homo sapiens with 14 samples.

Results

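SNAP-tagged forms of both catalytic ADAR enzymes were compared with an empty vector in a human embryonic kidney line, 293 Flip-In T-REx, which takes up a transgene at 1 fixed site. The comparison pooled SA1+gRNA (genotype SNAP-ADAR1 gene) and SA2+gRNA (genotype SNAP-ADAR2 gene), 4 libraries with wild-type deaminase domains and a guide RNA, against ctrl (genotype empty vector), 2 libraries without either. These are 6 of the 14 libraries of the series, chosen by their labels alone. The other 8 libraries hold the same deaminase domains with a glutamate-to-glutamine change, as SA1Q and SA2Q without guide and SA1Q+gRNA and SA2Q+gRNA with guide, 2 libraries each. The series set out to find off-target editing by RNA sequencing, and its design text speaks of biologically independent experiments. Both wild-type lines had received guide and the vector line had none, and each genotype is represented by 1 line, so that enzyme, guide and cell line cannot be told apart here. Neither the guide's target nor an induction step is given in the sources used here.

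ADAR enzymes convert adenosine to inosine in double-stranded RNA, and inosine is read as guanosine. In a SNAP-ADAR fusion the deaminase domain of ADAR or of ADARB1 is joined to the SNAP tag, which was engineered from the DNA repair protein encoded by MGMT. The tag bonds covalently to a guide RNA that carries benzylguanine, and the guide brings the deaminase to the transcript it pairs with. The comparison asked which transcripts change in abundance, since a gene count holds no information on edited bases.

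The 6 libraries held 45.2 to 130.1 M fragments and the series 43.0 to 130.1 M. In SA1+gRNA replicate 2, which had the highest total, every one of the 40542 nonzero transcript counts was even (100%), where 47.7% to 48.7% were even elsewhere; divided by 2, its depth is 65.1 M. ctrl replicate 1 stood apart: on the first principal component of the 6 libraries it lay at -47.3 and the other 5 lay between 5.6 and 13.8. Among all 14 libraries only SA1Q+gRNA replicate 1 lay beside it. The SD of the log2 difference between replicates was 0.28 in ctrl and 0.19 in each of SA1+gRNA and SA2+gRNA. Across genes, the ctrl difference followed transcript length (Spearman's rho -0.49), as that of SA1Q+gRNA did (-0.48), against 0.08 in SA1+gRNA and 0.16 in SA2+gRNA. With GC content rho was 0.27 in ctrl, -0.54 in SA1+gRNA, 0.05 in SA2+gRNA and 0.65 in SA1Q+gRNA. The SA1+gRNA replicates thus also differed by a trend across genes. Results that rest on ctrl are given with and without ctrl replicate 1 where it matters. The summed level of the 293 identity markers ran from 2361 to 2663 CPM (counts scaled to library size) in the 6 libraries. None of the tested fibroblast, blood cell, endothelial or epithelial markers was called. Since only 0.244% of all genes were called against ctrl, this is no result about cell identity. Over the 6 libraries the summed blood cell markers ran from 167 to 178 CPM and the endothelial markers from 38.8 to 55.1. The fibroblast markers ran from 10 to 14 CPM and the epithelial markers from 623 to 726.

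The 2 transgenes marked their own lines. ADAR stood at 307 and 340 CPM in ctrl, at 1426 and 1603 in SA1+gRNA, and at 329 and 311 in SA2+gRNA. ADARB1 stood at 29.3 and 37.2 CPM in ctrl, at 25.5 and 30.1 in SA1+gRNA, and at 965 and 982 in SA2+gRNA. Of these 6 libraries, each deaminase gene was high only in the line labelled with it, and the tables hold no separate entry for a transgene. ADAR was 2.24 ± 0.09 (SE) higher on the log2 scale in SA1+gRNA than in SA2+gRNA (adjusted p = 1.4e-09), and ADARB1 differed by -5.12 ± 0.13 (adjusted p = 1.9e-12). Adjusted p-values are from edgeR's quasi-likelihood test over 16410 genes, and a gene is called when its adjusted p is under 0.05. MGMT, whose engineered product is the tag, ran from 16.4 to 22.9 CPM over the 6 libraries and was not called (log2 change 0.11 ± 0.12, adjusted p = 0.76).

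Few genes were called between the wild-type lines and the vector line. In the pooled comparison 40 of 16410 genes were called, 0.244% of those tested. Of these, 15 were higher (0.0914%) and 25 lower (0.152%), and 19 changed more than 2-fold. The 4 wild-type libraries did not overlap the 2 ctrl libraries in 38 of the 40, where 18.9% of all tested genes did not overlap; ADAR and ADARB1 did overlap. SA1+gRNA alone against ctrl gave 7 calls (0.0427%) and SA2+gRNA alone gave 17 (0.104%). Only 6 genes were called in each enzyme in the same direction (0.0366%), 4 higher and 2 lower, and both of these comparisons use the same ctrl libraries. Of the 40, 25 were called in neither enzyme alone. The unadjusted p of the pooled comparison was under 0.05 in 2012 genes. The small number of calls therefore does not show that few genes differ.

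**Figure D1:**
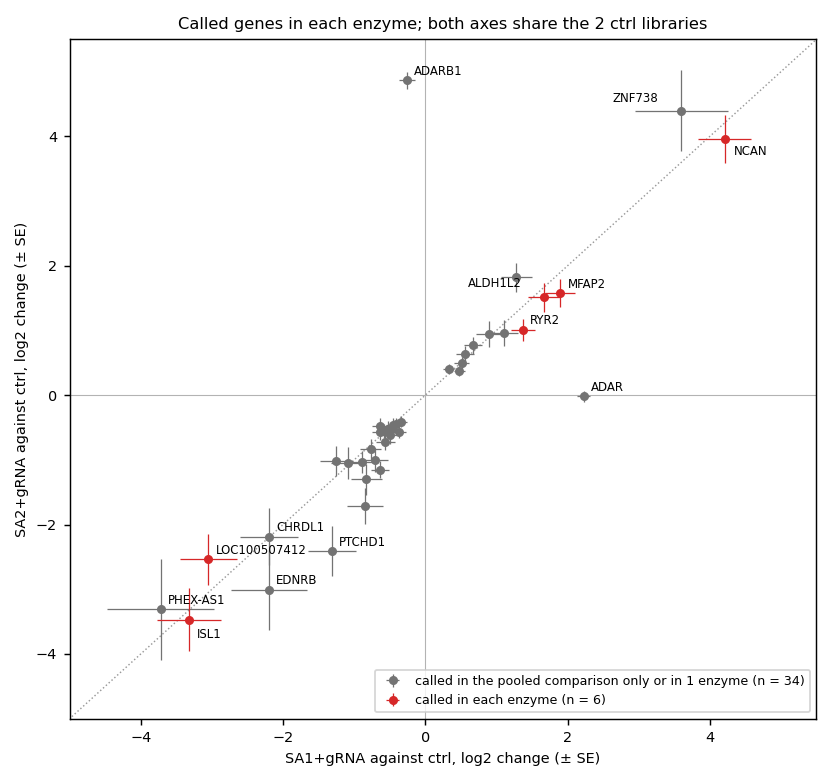
Log2 change against ctrl in SA1+gRNA (horizontal) and SA2+gRNA (vertical) for the 40 genes called in the pooled comparison, with standard errors; red points are the 6 genes called in each enzyme. ADAR and ADARB1 lie far from the dotted line of equal change, and since both axes share the 2 ctrl libraries, the nearness of the other points to it is no separate evidence.

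The number of calls varied widely with the libraries used. Without ctrl replicate 1 and SA1Q+gRNA replicate 1, the 2 libraries that stood apart, 568 of 16622 genes were called (3.42%), 334 higher and 234 lower, and 38 of the 40 were among them. Leaving out SA1+gRNA replicate 1 or 2 gave 12 or 20 calls, and SA2+gRNA replicate 1 or 2 gave 13 or 17. Without ctrl replicate 1 there were 46 calls and without ctrl replicate 2 there were 80. In all, 10 genes were called under all 15 alternative settings, and they are ADAR, ADARB1, NCAN, MFAP2, ALDH1L2, RYR2, ZNF257, ISL1, CEBPE and LOC100507412.

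**Figure D2:**
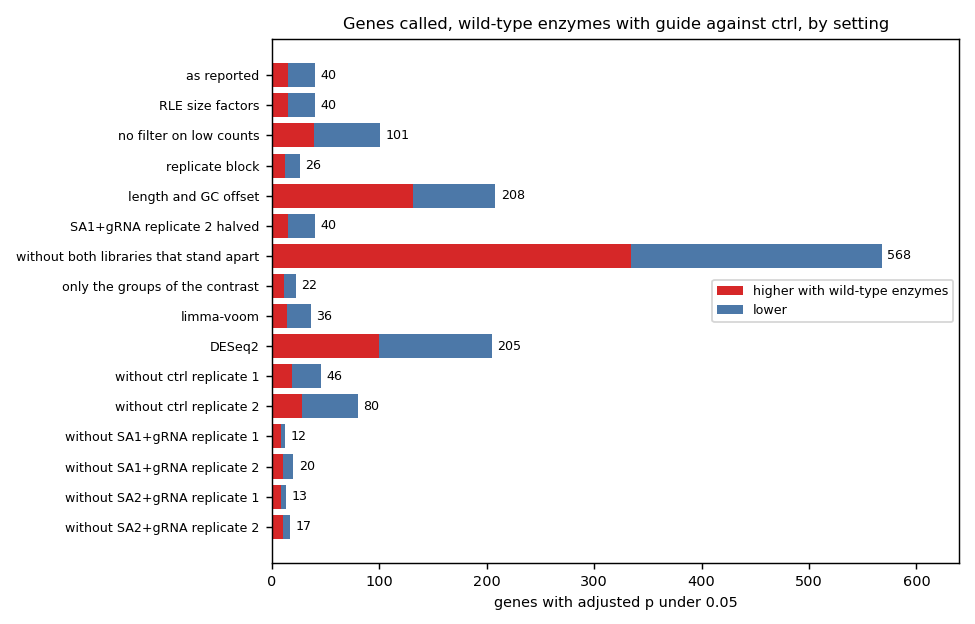
Number of genes called in the pooled comparison under each setting, higher with wild-type enzymes in red and lower in blue. The reported fit gives 40 genes, the fit without both libraries that stand apart 568 and the fit without SA1+gRNA replicate 1 gives 12.

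Of the 4 genes that rose in each enzyme, 2 encode proteins of the extracellular matrix, 1 a calcium channel and 1 a folate enzyme. NCAN, which encodes the brain proteoglycan neurocan (hg19, chr19:19322782-19363061, plus strand), stood at 0.334 and 0.473 CPM in ctrl. It reached 5.68 and 9.41 CPM in SA1+gRNA and 5.84 and 6.97 in SA2+gRNA. All 4 wild-type libraries lay above all 10 others, of which the 8 libraries of the Q lines ran from 0.441 to 3.04 CPM. NCAN rose by 4.09 ± 0.35 on the log2 scale (adjusted p = 3.5e-05), by 4.21 in SA1+gRNA (adjusted p = 6.8e-05) and by 3.96 in SA2+gRNA (adjusted p = 0.00019). Per length its level was still low, 0.0596 FPKM (fragments scaled to transcript length and library size) in ctrl and 1.02 FPKM in the wild-type lines. In bulk RNA, more cells with a transcript and more RNA per cell cannot be told apart.

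MFAP2, which encodes a glycoprotein of elastic microfibrils (chr1:17300999-17307173, minus strand), stood at 1.7 and 2.48 CPM in ctrl, at 7.39 and 8.31 in SA1+gRNA and at 6.49 and 6.12 in SA2+gRNA. The groups did not overlap, and the Q lines lay between, at 4.02 to 6.33 CPM with 1 library inside the range of the wild-type lines. MFAP2 rose by 1.74 ± 0.19 on the log2 scale (adjusted p = 0.00056). RYR2, the ryanodine receptor that releases calcium from internal stores (chr1:237205702-237997288, plus strand), stood at 7.12 and 6.91 CPM in ctrl, at 18.1 in both SA1+gRNA libraries and at 15.7 and 12.7 in SA2+gRNA. It rose by 1.19 ± 0.15 on the log2 scale (adjusted p = 0.0022), and the Q lines, at 11.6 to 18.2 CPM, covered the range of the wild-type lines. ALDH1L2, a mitochondrial folate enzyme (chr12:105413562-105478341, minus strand), stood at 1.79 and 3.41 CPM in ctrl, at 9.05 and 7.81 in SA1+gRNA and at 8.82 and 6.32 in SA2+gRNA. All wild-type libraries lay above the other 10, and the rise was 1.59 ± 0.21 on the log2 scale (adjusted p = 0.0022). The ctrl libraries differed for this gene, and leaving out ctrl replicate 1 gave 1.22 and leaving out ctrl replicate 2 gave 2.15, called in each case.

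ISL1, a LIM-homeodomain transcription factor of motor neurons and heart progenitors (chr5:50678958-50690563, plus strand), fell in each enzyme. It stood at 2.03 and 2.1 CPM in ctrl, at 0.164 and 0.231 in SA1+gRNA and at 0.293 and 0.0974 in SA2+gRNA. The ctrl libraries were the only ones with a level above 1, since the Q lines ran from 0.0215 to 0.255 CPM. ISL1 fell by 3.40 ± 0.37 on the log2 scale (adjusted p = 0.00056), by 3.32 in SA1+gRNA (adjusted p = 0.0059) and by 3.47 in SA2+gRNA (adjusted p = 0.0087). An antisense gene, ISL1-DT, overlaps it, and reads of both cannot be told apart unless the counting used strand, which is not stated. The other fall in each enzyme was LOC100507412, an uncharacterized locus that overlaps the ribosomal RNA gene RNA45SN5 on an unplaced contig and that was singled out after its values were seen. It stood at 11.4 and 43.8 CPM in ctrl and at 3.24 to 4.94 in the wild-type libraries (log2 change -2.79 ± 0.31, adjusted p = 0.00057). The ctrl libraries disagreed, and leaving out ctrl replicate 2 gave -1.51 where leaving out ctrl replicate 1 gave -3.45. RNA45SN5, whose product has no poly(A) tail, ran from 2372 to 8554 CPM over the 6 libraries and was not called (log2 change -0.37, adjusted p = 0.76). The part of ribosomal RNA carry-over in the LOC100507412 counts was not tested.

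**Figure D3:**
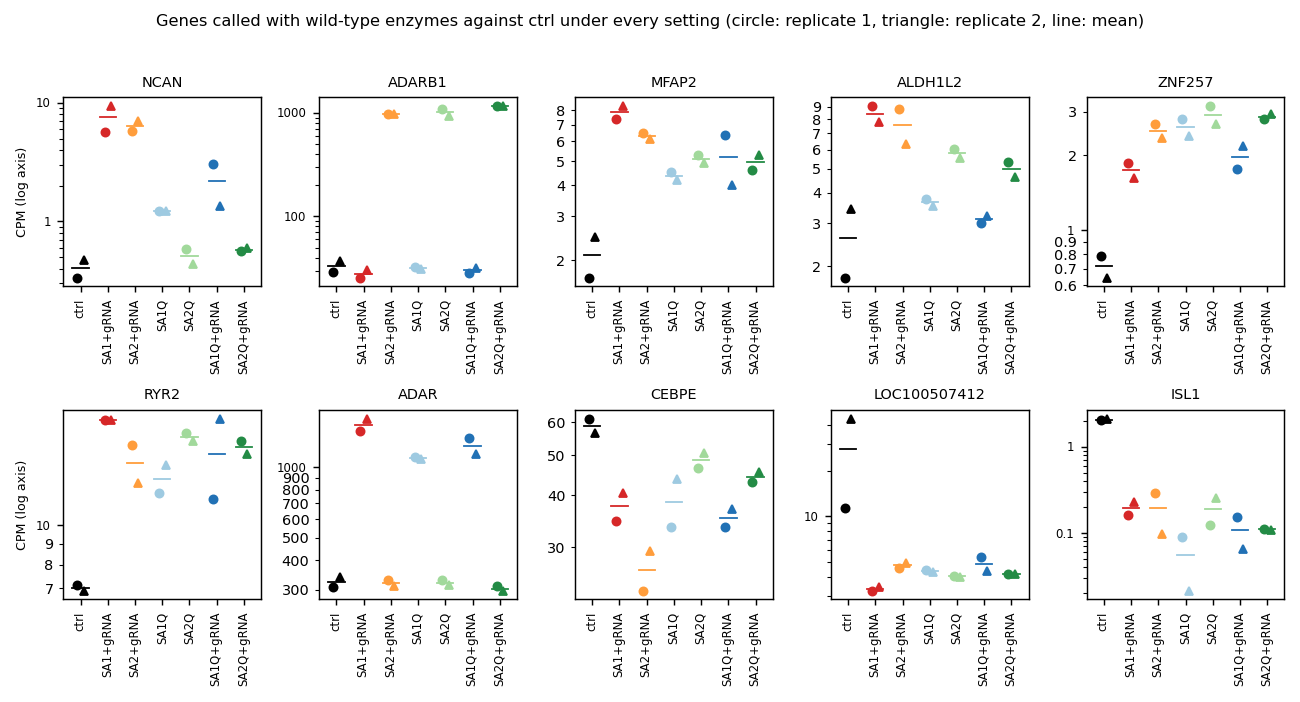
Level in CPM (log axes) of the 10 genes called under every setting, by group, with circles for replicate 1, triangles for replicate 2 and lines for the mean of 2. For ISL1 ctrl stands at 2.03 and 2.1 CPM and all 12 other libraries at 0.0215 to 0.293, whereas for NCAN the 4 wild-type libraries, at 5.68 to 9.41, stand above the other 10.

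The start regions of the genes called in each enzyme are shown to see whether they share a known motif. Of the 5 such genes with a full name, 3 have an entry in the RefSeq promoter table (GRCh38.p14), and NCAN and ALDH1L2 have none. Only the first entry of a gene was used, and it was not matched to the transcript that was counted. The 250 bases before the start were searched on both strands for the GC box GGGCGG, the CCAAT box CCAAT, the TATA box TATAAA, the E-box CACGTG, the core TGACG of cyclic AMP-responsive elements (CRE) and the ATF4 composite element TGATGNAA. Capitals mark the matches, and the last base is next to the start. The windows lie at chr1:16981584-16981833 (minus strand) for MFAP2, chr1:237041934-237042183 (plus) for RYR2 and chr5:51383198-51383447 (plus) for ISL1.
MFAP2: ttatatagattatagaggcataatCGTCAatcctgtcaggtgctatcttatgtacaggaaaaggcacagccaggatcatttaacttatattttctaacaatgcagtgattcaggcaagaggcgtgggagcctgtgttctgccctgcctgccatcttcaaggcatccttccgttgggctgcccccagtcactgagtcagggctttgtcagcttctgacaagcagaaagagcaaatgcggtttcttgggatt
RYR2: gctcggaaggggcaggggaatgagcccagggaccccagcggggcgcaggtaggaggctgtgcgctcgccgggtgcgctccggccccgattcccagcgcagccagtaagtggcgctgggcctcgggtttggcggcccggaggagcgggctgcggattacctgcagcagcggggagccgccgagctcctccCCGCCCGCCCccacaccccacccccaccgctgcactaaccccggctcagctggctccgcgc
ISL1: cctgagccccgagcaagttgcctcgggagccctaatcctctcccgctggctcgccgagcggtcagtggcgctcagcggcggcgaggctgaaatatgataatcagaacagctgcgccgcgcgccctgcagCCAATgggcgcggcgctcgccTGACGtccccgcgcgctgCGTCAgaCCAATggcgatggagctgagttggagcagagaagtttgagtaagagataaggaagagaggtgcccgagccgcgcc
No motif occurred in all 3 windows. MFAP2 held 1 CRE core, RYR2 held 2 GC boxes that overlap each other, and ISL1 held 2 CCAAT boxes and 2 CRE cores. Of all 35116 windows of the table, 21.2% hold a CRE core, 42.6% a GC box and 32% a CCAAT box. GC content was 46.8% for MFAP2, 65.2% for ISL1 and 75.2% for RYR2, beside a median of 58% over all windows.

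The remaining rises were smaller or rested on low counts. ZNF257, a zinc finger gene of the cluster on chromosome 19p12, stood at 0.788 and 0.644 CPM in ctrl. Its level was 1.62 to 2.68 CPM in the wild-type libraries and 1.77 to 3.16 in the Q lines. It rose by 1.55 ± 0.20 on the log2 scale (adjusted p = 0.0022), and was called in SA2+gRNA (adjusted p = 0.002) but not in SA1+gRNA (adjusted p = 0.062); the enzymes did not differ in the test between them (adjusted p = 0.91). ZNF738, from the same cluster, stood at 0.0955 and 0.0189 CPM in ctrl. Its level was 0.462 to 1.23 CPM in the wild-type libraries (pooled adjusted p = 0.0089) and 0.509 to 1.3 in the Q lines. ZNF738 had log2 changes of 3.60 ± 0.65 in SA1+gRNA and 4.40 ± 0.62 in SA2+gRNA. It lost its call without ctrl replicate 2 (adjusted p = 0.064). These were the only 2 of 26 tested genes of the 19p12 list that were called, and the median of that list was 0.00, equal to that of all genes.

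SELENOP, which encodes the secreted carrier of selenium, stood at 2.27 and 2.82 CPM in ctrl and at 4.58 to 6.24 in the wild-type libraries. It rose by 1.04 ± 0.18 on the log2 scale (adjusted p = 0.029), lost its call without ctrl replicate 1 (adjusted p = 0.11) and overlaps CCDC152 on the other strand. HOGA1, a mitochondrial enzyme of hydroxyproline breakdown, rose by 0.92 ± 0.18 (adjusted p = 0.045). SPON1, a secreted matrix protein of developing neural tissue, went from 13.2 and 16.8 CPM to 22.9 to 26.7 and rose by 0.72 ± 0.11 (adjusted p = 0.014). SFRP1, a secreted inhibitor of Wnt ligands, rose by 0.59 ± 0.11 (adjusted p = 0.047). The smallest rises were in ERC1, a scaffold of vesicle docking sites (0.50 ± 0.08), BTG3, of an antiproliferative family (0.42 ± 0.07), and HMGA2, a chromatin protein of embryonic cells (0.37 ± 0.07). In the Q lines SPON1 ran from 21 to 29.6 CPM, SFRP1 from 16.3 to 28.7 and ERC1 from 98.7 to 115. BTG3 ran from 53.2 to 66.2 CPM there and HMGA2 from 94.2 to 123. Each of these ranges covered that of the wild-type libraries. SELENOP and HOGA1, at 2.06 to 3.37 and 1.75 to 2.43 CPM in the Q lines, lay below the wild-type libraries. HOGA1, SPON1, SFRP1, ERC1, BTG3 and HMGA2 each lost the call without ctrl replicate 1. These genes and SELENOP also lost it without SA1+gRNA replicate 1, and without SA2+gRNA replicate 1. SFRP1 and HMGA2 lost it in every fit with 1 library left out.

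Among the falls, CEBPE was called under every setting. This gene, a transcription factor of granulocyte maturation, stood at 61.1 and 56.5 CPM in ctrl, at 34.8 and 40.6 in SA1+gRNA and at 23.6 and 29.4 in SA2+gRNA. It fell by 0.89 ± 0.11 on the log2 scale (adjusted p = 0.0018), and by 1.15 in SA2+gRNA (adjusted p = 0.0019) with a value of -0.64 in SA1+gRNA (adjusted p = 0.1). The test between the enzymes gave 0.51 ± 0.13 (adjusted p = 0.74), so a difference between them was not shown. The Q lines lay between ctrl and SA2+gRNA, at 33.5 to 50.7 CPM. KCND1, a voltage-gated potassium channel, stood at 4.51 and 6 CPM in ctrl and at 2.42 to 2.96 in the wild-type libraries, and fell by 0.97 ± 0.14 (adjusted p = 0.0089). For KCND1 the Q lines lay between, at 3.16 to 4.04 CPM.

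Further falls passed under fewer settings. CHRDL1, an antagonist of bone morphogenetic proteins, stood at 1.34 and 0.947 CPM in ctrl and at 0.146 to 0.314 in the wild-type libraries (log2 change -2.19 ± 0.35, adjusted p = 0.017). PTCHD1, a membrane protein with a patched domain, fell by 1.86 ± 0.30 (adjusted p = 0.018), and EPHA5, an ephrin receptor, by 1.28 ± 0.22 (adjusted p = 0.029). NOS3, the endothelial nitric oxide synthase, fell by 1.13 ± 0.20, and VEGFC, the lymphatic growth factor, by 1.06 ± 0.19 (adjusted p = 0.029 and 0.035). LSAMP, an adhesion protein of limbic neurons, went from 8.79 and 8.82 CPM to 3.65 to 5.42 and fell by 0.86 ± 0.16. TSPAN7, a tetraspanin, fell by 0.60 ± 0.11 and RPRM, a cell cycle inhibitor, by 0.57 ± 0.10. For each gene of this paragraph the Q lines also lay below both ctrl libraries, as with CHRDL1 at 0.0821 to 0.172 CPM and TSPAN7 at 14.2 to 17.6. NOS3 came near ctrl in the Q lines, at up to 3.21 CPM against 3.24 in ctrl replicate 2. EPHA5, NOS3 and LSAMP each overlap an antisense gene, so that their counts are uncertain.

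The other named falls were FAM229A (-1.07 ± 0.21), the WASH pseudogene WASH5P (-0.80 ± 0.13), the zinc finger gene ZNF22 (-0.64 ± 0.11) and the pseudogene PVRIG2P (-0.56 ± 0.11). The Q lines also lay below both ctrl libraries for WASH5P, ZNF22 and PVRIG2P. For FAM229A they ran from 1.61 to 3.91 CPM and overlapped ctrl, at 3.27 and 4.09. PVRIG2P lies inside the readthrough gene STAG3L5P-PVRIG2P-PILRB, which was also called (-0.47), so that these 2 calls may not be separate. PHEX-AS1 and EDNRB, the endothelin receptor B gene, were called with every library under 1 CPM. Of the wild-type lines' 25 falls, only ISL1, CEBPE and LOC100507412 were called in each of the 15 settings. CHRDL1, EPHA5, NOS3, VEGFC, LSAMP, TSPAN7, RPRM, FAM229A, ZNF22 and PVRIG2P lost the call without ctrl replicate 1. Without ctrl replicate 2, PTCHD1, KCND1 and WASH5P lost the call, as did VEGFC, LSAMP, FAM229A, ZNF22 and PVRIG2P. All of these genes but KCND1 also lost it without SA1+gRNA replicate 1.

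Outside their own transgenes the 2 wild-type enzymes were not told apart. SA1+gRNA against SA2+gRNA, whose contrast holds no ctrl mean although ctrl adds to the shared estimate of spread, gave 2 calls, ADAR and ADARB1 (0.0122%), and 789 genes at an unadjusted p under 0.05. DESeq2 called 9 genes, and the fit of these 2 groups alone called 4. Of the 40 pooled calls, 9 had point estimates that differed by more than 0.5 log2 between the enzymes, ADAR and ADARB1 among them. PTCHD1 had the values -1.31 in SA1+gRNA and -2.41 in SA2+gRNA (difference 1.10 ± 0.40, adjusted p = 0.91). EPHA5 had -0.85 and -1.71 (difference 0.87 ± 0.28, adjusted p = 0.91). NCAN differed by 0.25 ± 0.26 and MFAP2 by 0.32 ± 0.19. With an SE of this size a small difference would not be seen, so the test does not show that the enzymes act alike.

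The wild-type lines were also set against the lines of the same deaminases with the Q change, all with guide, since these groups differ in the enzyme and line but not in the presence of a guide, and the contrast holds no ctrl mean. Of 16410 genes 141 were called (0.859%), 99 higher with wild-type enzymes (0.603%) and 42 lower (0.256%). Only 3 of the 40 genes called against ctrl were called here, and all were higher with wild-type enzymes; both comparisons use the same 4 wild-type libraries. NCAN stood at 5.68 to 9.41 CPM in the wild-type libraries and at 0.558 to 3.04 in the Q libraries with guide (log2 difference 2.66 ± 0.22, adjusted p = 8.3e-05). ALDH1L2 was higher by 1.01 ± 0.15 (adjusted p = 0.0052) and SELENOP by 0.72 ± 0.14 (adjusted p = 0.025). NCAN and ALDH1L2 were called in all 17 alternative settings of this comparison, as were 27 of the 141 genes in all, 22 of them higher. SELENOP was called in 12 of the 17, and in 3 of the 8 fits with 1 library left out. For MFAP2, RYR2 and ISL1 the differences were 0.48 ± 0.13, 0.07 ± 0.11 and 0.86 ± 0.46, and none was called.

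Genes of serine and asparagine synthesis were among those higher in the wild-type lines than in the Q lines. This list and the lists that follow were chosen with earlier results of these data known. A count of called members is therefore description only. Of 16 tested genes 8 were called higher and none lower, where 0.603% of all genes were called higher and 0.256% lower. The median log2 difference of the 16 genes was 0.31, beside 0.00 over all genes. Over the 17 settings 3 to 11 of them were called and the median was 0.29 to 0.34. The lowest number, 3, came without replicate 1 of SA1+gRNA or SA2+gRNA or without either SA2Q+gRNA library, and it was 4 without SA1+gRNA replicate 2. PSAT1, which makes phosphoserine, stood at 208 and 207 CPM in SA1+gRNA and at 228 and 222 in SA2+gRNA, against 132, 142, 161 and 171 in the Q libraries with guide (log2 difference 0.52 ± 0.05, adjusted p = 0.00015). In ctrl PSAT1 stood at 173 and 172 CPM, below the wild-type lines and above the Q libraries with guide, and the change against ctrl was not called (0.33 ± 0.06, adjusted p = 0.054). ASNS, the asparagine synthetase gene, stood at 207 to 229 CPM in the wild-type libraries, at 186 and 172 in ctrl and at 116 to 180 in the Q libraries with guide (0.58 ± 0.07, adjusted p = 0.0013). MTHFD2, CTH, CBS, PSPH and PHGDH, of mitochondrial folate, cysteine and serine synthesis, were higher by 0.32, 0.41, 0.30, 0.35 and 0.36. PSAT1, ASNS and ALDH1L2 were called in all 17 settings, and the other five in 10 to 12 of them. Against ctrl ALDH1L2 was the only called gene of this list, 14 of 16 values were above 0 and the median was 0.11. Without both libraries that stand apart the median of this list against ctrl was 0.09, beside 0.01 over all genes.

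**Figure D4:**
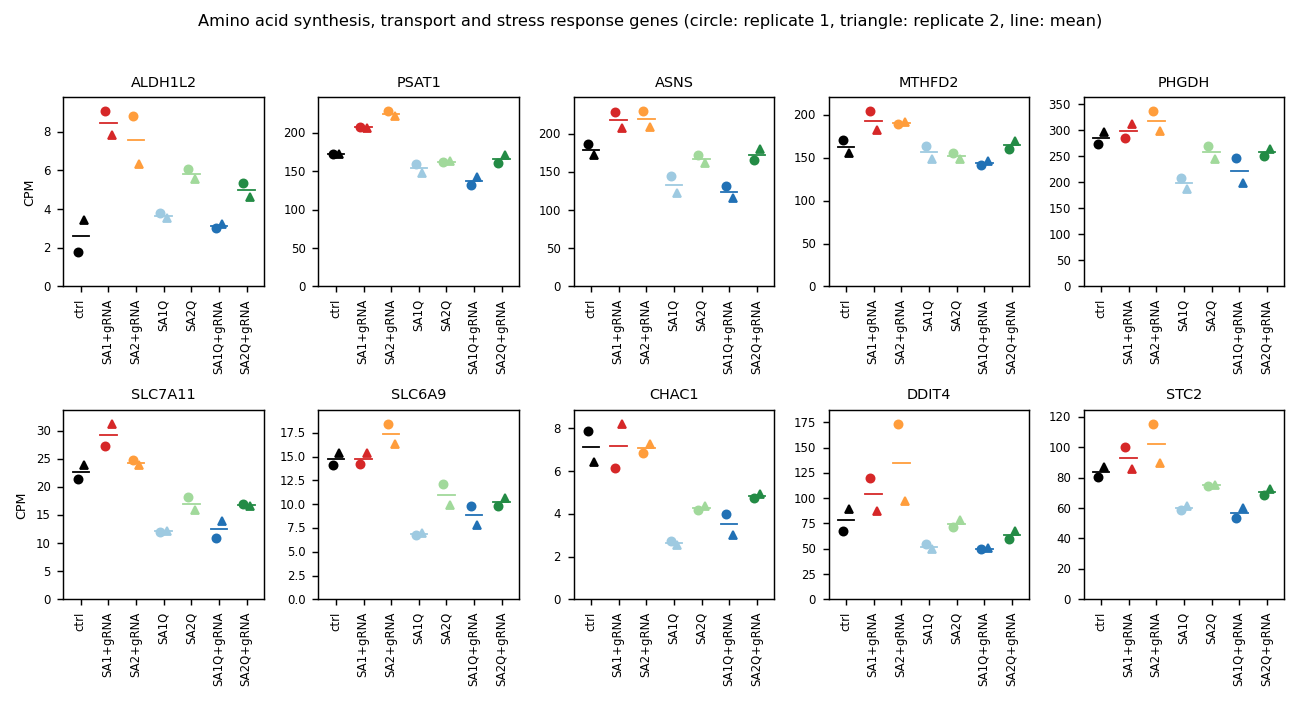
Level in CPM (linear axes from 0) of 10 genes of amino acid synthesis, transport and stress response by group, with circles for replicate 1, triangles for replicate 2 and lines for the mean of 2. For SLC7A11 the 4 wild-type libraries stand at 23.9 to 31.1 CPM, ctrl at 21.4 and 23.8 and the Q libraries with guide at 10.9 to 17.

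Amino acid transporters and genes around ATF4, the transcription factor of the amino acid response, followed with fewer calls. Over all genes 0.603% were called higher than in the Q lines. SLC7A11, the cystine transporter, stood at 27.3 and 31.1 CPM in SA1+gRNA, at 24.7 and 23.9 in SA2+gRNA, at 21.4 and 23.8 in ctrl and at 10.9 to 17 in the Q libraries with guide (wild-type over Q 0.88 ± 0.09, adjusted p = 0.00014). It overlaps SLC7A11-AS1. SLC6A9, a glycine transporter, was higher than in the Q libraries by 0.76 ± 0.09 (adjusted p = 0.0012); these were the 2 of 14 transporters called. Of 21 ATF4-related genes 5 were called higher (STC2, DDIT4, CHAC1, VLDLR and VEGFA), with a median of 0.15. Over the 17 settings 3 to 9 were higher, with 3 when any 1 wild-type or SA2Q+gRNA library was left out. Under DESeq2, with the length and GC offset and without SA1Q+gRNA replicate 2, 3 members were called lower, and VLDLR passed in 10 settings and VEGFA in 7. CHAC1, which degrades glutathione, stood at 6.14 to 8.19 CPM in the wild-type libraries and at 3.02 to 4.94 in the Q libraries with guide (0.80 ± 0.12, adjusted p = 0.0043), with 7.86 and 6.44 in ctrl. DDIT4, an inhibitor of mTOR signalling, was higher by 1.06 ± 0.15 (adjusted p = 0.0026), with 87.6 to 173 CPM in the wild-type libraries and 49.4 to 67.8 in the Q libraries. CHAC1, STC2, DDIT4, SLC7A11 and SLC6A9 had log2 values against ctrl of 0.00, 0.22, 0.59, 0.24 and 0.12, none called. All 5 passed in each of the 17 settings against Q.

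The windows of ASNS and CHAC1 are shown because both genes were called and hold an ATF4 element. They lie at chr7:97872409-97872658 (minus strand) and chr15:40953221-40953470 (plus strand) of GRCh38.p14, with capitals for matches to the 6 motifs named above.
ASNS: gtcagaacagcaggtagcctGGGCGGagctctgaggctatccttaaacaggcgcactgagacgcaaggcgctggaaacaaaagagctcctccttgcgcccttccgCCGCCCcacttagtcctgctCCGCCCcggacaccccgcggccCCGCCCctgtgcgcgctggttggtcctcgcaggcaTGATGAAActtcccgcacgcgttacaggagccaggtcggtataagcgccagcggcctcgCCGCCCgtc
CHAC1: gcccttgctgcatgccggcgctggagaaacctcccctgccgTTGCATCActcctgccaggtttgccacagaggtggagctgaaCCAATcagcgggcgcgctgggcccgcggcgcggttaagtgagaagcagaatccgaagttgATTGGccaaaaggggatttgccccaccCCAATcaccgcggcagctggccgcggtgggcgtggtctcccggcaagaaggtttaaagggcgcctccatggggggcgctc
The element reads TGATGAAA in ASNS, 68 to 61 bases before the start, and TTGCATCA, its reverse strand, in CHAC1, 209 to 202 bases before the start. Of the 10 serine and asparagine synthesis genes with an entry 2 hold the element, ASNS and MTHFD1L, and only ASNS was called. Of 18 ATF4-related genes with an entry 3 hold the element, ATF3, CHAC1 and FGF21, and only CHAC1 was called. Of 11 transporters none holds it. The element occurs in 3.14% of all windows of this length, whereas only the first entry of each listed gene was searched. Since the ATF4-related list was made of regulators and targets of the stress response, its share is no result of these data.

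Smaller shares of 3 further lists passed the test between wild-type and Q lines, where 0.603% of all genes were called higher and 0.256% lower. Of 47 ribosomal protein genes 6 were called higher and none lower (median 0.14), led by RPL13A at 1901 to 2017 CPM against 1286 to 1521 (0.43 ± 0.06, adjusted p = 0.0023). The number was 2 to 28 over the 17 settings, and these genes have many pseudogene copies that make their counts uncertain. Of 26 translation factors 4 were called higher; EIF4B, which assists the helicase of initiation, stood at 577 to 653 CPM against 371 to 478 (0.51 ± 0.05, adjusted p = 0.00014). The median of the translation factors was 0.02, near that of all genes, and 2 to 8 were called over the settings, 2 of them without replicate 1 of SA1+gRNA, either replicate of SA2+gRNA or either of SA2Q+gRNA. The same 5 left-out libraries, and SA1+gRNA replicate 2, each left 2 ribosomal protein calls. Of 23 genes of synaptic release 6 were called lower in the wild-type lines and none higher (median -0.25), 3 to 8 over the settings and 3 without SA1+gRNA replicate 1 or without SA2+gRNA replicate 1. It was 4 without SA2+gRNA replicate 2 or either SA2Q+gRNA library. The summed level of this list was 318 to 336 CPM in the wild-type libraries, 412 and 374 in SA1Q+gRNA, and 337 and 349 in SA2Q+gRNA, so the Q groups were not alike. SCG3, a secretory granule protein, stood at 2.99 to 3.86 CPM against 4.39 to 7.85 (-0.79 ± 0.10, adjusted p = 0.0017), and CPLX2, a complexin, at 1.87 to 2.7 CPM against 2.26 to 6.59 (-0.92 ± 0.14, adjusted p = 0.0043). For SCG3 and CPLX2 ctrl lay at the level of the wild-type lines, at 3.89 and 3.18 CPM and at 2.01 in both libraries. The other genes with large differences were RAB26, a vesicle GTPase (1.16 ± 0.16), APLN, which encodes the peptide apelin (0.93 ± 0.21), WFIKKN1, a protease inhibitor (-1.34 ± 0.26), the taste receptor gene TAS1R3 (-1.14 ± 0.22), CHGA, a chromogranin (-0.86 ± 0.14), and CALHM2 (-0.76 ± 0.13). RAB26 was called in all 17 settings and APLN, which reached at most 2.53 CPM, in 6. CHGA was called in 16, WFIKKN1 in 12, CALHM2 in 11 and TAS1R3 in 10. WFIKKN1 and TAS1R3 stood at only 0.338 to 0.666 and 0.248 to 0.71 CPM in the wild-type libraries.

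**Figure D5:**
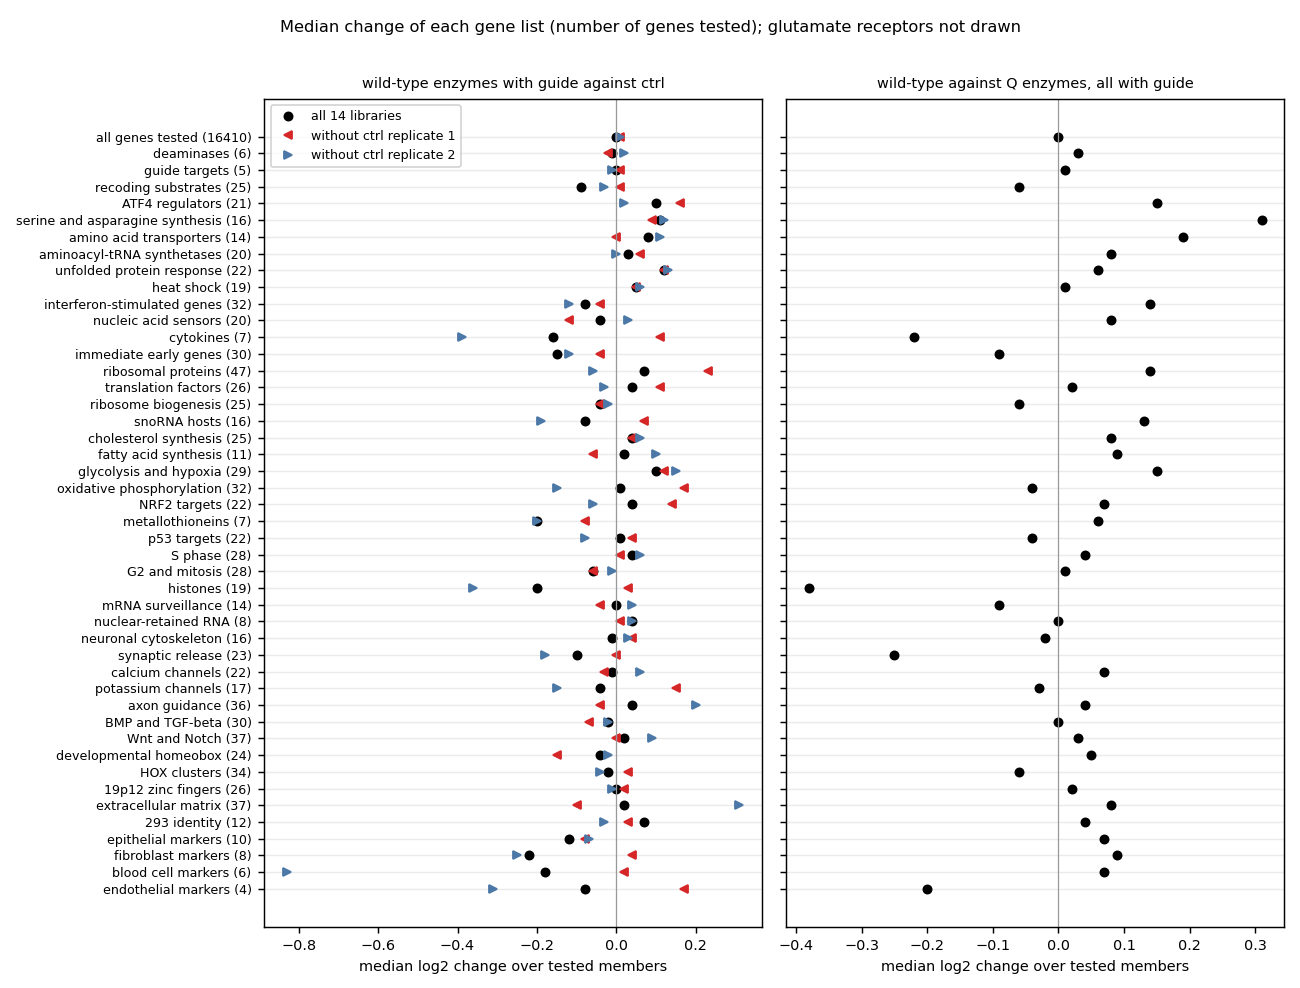
Median log2 change of the tested genes of each list, for wild-type enzymes against ctrl on the left, with all 14 libraries and without either ctrl library, and for wild-type against Q enzymes with guide on the right. On the left ribosomal proteins stand at 0.07 with all libraries, 0.23 with ctrl replicate 1 left out and -0.06 with ctrl replicate 2 left out, and on the right serine and asparagine synthesis stands at 0.31; glutamate receptors are not drawn.

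Against ctrl 9 of the 46 lists held a called gene. No call fell among 32 interferon-stimulated genes, 20 nucleic acid sensors or 25 known recoding substrates of ADAR enzymes. The same held for 5 transcripts that have served as guide targets. Since only 0.244% of all genes were called, lists of these sizes would mostly hold no call, and this is no result about their members. ACTB had a log2 value of -0.17 (adjusted p = 0.52), GAPDH 0.05 and GUSB 0.00. Of 22 genes of the unfolded protein response 19 had values above 0, with a median of 0.12 and no call, whereas 8202 of all 16410 genes were above 0. The median of 47 ribosomal protein genes was 0.07; dropping ctrl replicate 1 made it 0.23 and dropping ctrl replicate 2 made it -0.06, so its sign rests on which vector library is kept. The vector libraries differ with transcript length (above). With the length and GC offset and all libraries kept, the median of the ribosomal protein genes was 0.06. The part of length in the change between the ctrl libraries was not tested. Without both libraries that stand apart the median of the ribosomal protein genes was 0.23, beside 0.01 over all genes. Oxidative phosphorylation genes turned in the same way, with a median of 0.01, then 0.17 and -0.15. Extracellular matrix genes turned in the other direction, with a median of 0.02, then -0.10 and 0.31; NCAN and MFAP2 were their 2 calls. Glutamate receptors had a median of -1.45 without a call, at levels near 0; GRIA2, for example, was at 0.907 CPM in the first ctrl library but 0.0379 in the second.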

How the data were processed

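RNA was polyadenylated, treated with DNase I and sequenced in pairs from a stranded kit, per the labels' protocols; the submitters' processing notes name Trim Galore, STAR 2.4.2a and hg19. The counting tool and whether it used strand are not given in these sources. The deposited files hold, per transcript, fragment counts without normalization, an FPM signal scaled to the library total, and FPKM, which the authors scaled to size and depth, per the file headers. FPM chose the transcript that represents each gene and FPKM served for levels per length.

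Of 45595 accessions 98.6% were named through RefSeq (GRCh38.p14, names only) and GENCODE tables. Entries without a name (0.8% of counts) and those under 200 nucleotides were left out, which gave 22405 genes. Of these, 16410 passed filterByExpr (minimum count 10 in 2 libraries). Counts were fitted with edgeR 4.0.16 in R 4.3.3 (TMM, quasi-likelihood, two-sided, all 14 libraries, 1 mean per group, 7 residual degrees of freedom), with Benjamini-Hochberg adjustment over all genes in each of 5 comparisons. The pooled contrast gives each enzyme equal weight, and n = 2 per group. The script was tested on simulated data. Levels are TMM-scaled CPM of each library; printed log2 changes use a prior count of 0.125 and carry standard errors. The p-values rest on a spread between replicates that is estimated over all 14 libraries, not on that of the groups compared alone. Each SD of a group would rest on a pair.

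Genes named by rule were ADAR, ADARB1, MGMT, ACTB, GAPDH and GUSB, then those with the largest changes among called genes whose libraries do not overlap and whose higher mean reaches 1 CPM (15 each way pooled, 5 per enzyme and against Q, 10 between enzymes, all called in both enzymes). From each list the rule took up to 4 called members. Genes of the wild-type against Q comparison beyond these, and LOC100507412, RNA45SN5, PHEX-AS1, EDNRB and STAG3L5P-PVRIG2P-PILRB, were named after their values were seen. The members and the 46 lists were chosen with earlier results of these data known. Alternatives were DESeq2 1.42.0, limma-voom 3.58.1, RLE size factors, no filter, a length and GC offset (mgcv 1.9.3), a replicate block, the groups of the contrast alone, SA1+gRNA replicate 2 halved, and libraries left out. Replicates were not treated as paired. The deviations of same-numbered libraries correlated at -0.17 (ctrl and SA1+gRNA), -0.15 (ctrl and SA2+gRNA) and 0.14 (SA1+gRNA and SA2+gRNA). Over all pairs of groups the values ran from -0.35 (SA1+gRNA and SA1Q+gRNA) to 0.45 (ctrl and SA1Q+gRNA). Figures were drawn with matplotlib 3.10.9 in Python 3.11.15.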

Additional observations from a re-analysis of the deposited data

Results flagged for a closer look

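ADAR and ADARB1 differed between the 2 wild-type lines by the test of the difference itself: ADAR was 2.24 higher on the log2 scale in SA1+gRNA than in SA2+gRNA, and ADARB1 differed by -5.12, each line carrying the transgene of the enzyme that was high.

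NCAN, ALDH1L2 and SELENOP rose against ctrl and also differed between wild-type and Q lines with guide, by 2.66, 1.01 and 0.72 on the log2 scale. Both comparisons use the same 4 wild-type libraries. The difference from the Q lines was called in all 17 settings for NCAN and ALDH1L2 and in 12 of them for SELENOP.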

How the results depend on the processing

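Each value here is a number of called genes, and the cause of a shift was not tested. None of the 40 pooled calls and none of the 141 calls against Q changed sign under any alternative. For SA1+gRNA and SA2+gRNA pooled against ctrl (40) the numbers were 101 without the filter on low counts, 208 with the length and GC offset (131 higher, 77 lower), 568 without both libraries that stand apart, 22 with the groups of the contrast alone, 205 with DESeq2 (100 higher, 105 lower) and 12 to 80 with 1 library left out; RLE, voom and the halved library gave 36 to 40. SA1+gRNA against ctrl (7) had 40, 40, 384 and 101 without the filter, with the offset, without both libraries that stand apart and with DESeq2, and 4 to 22 with 1 library left out. SA2+gRNA against ctrl (17) had 63, 213, 473 and 126 in the same order, 3 with its own groups alone and 2 to 29 with 1 left out. Genes called in both enzymes in the same direction (6) numbered 19, 28, 215 and 42, 1 with the groups alone and 1 to 14 with 1 left out. SA1+gRNA against SA2+gRNA (2) had 4 without both libraries that stand apart, 4 with its groups alone, 9 with DESeq2 and 2 in every fit with 1 left out. The comparison wild-type with guide against Q with guide (141) had 243, 949 (505 higher, 444 lower), 421 and 436, 92 with its groups alone, and 30 (without SA2Q+gRNA replicate 1) to 1050 (without SA1Q+gRNA replicate 2). With the replicate number as a block, the pooled comparison gave 26 and wild-type against Q 93; the numbers are shared only as numbers. Each group has 2 libraries, which limits the precision of every comparison.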
